A study of Mus musculus with 18 samples.

Results

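The 8 genes described here, Irak1, Irak2, Traf6, Card10, Numb, Notch1, Smad4 and Cxcr4, have each been reported as targets of the microRNA miR-146a. They were taken by gene name from a table of 21734 protein-coding genes, in which all 8 had a row, and 7 of them (all but Card10) passed the filter on low counts that 11357 genes passed. Their mRNA was measured by RNA sequencing in bone marrow-derived macrophages (BMDMs), which are macrophages grown from marrow cells in the growth factor M-CSF (10 ng/ml) for 8 to 9 days. The marrow came from 6- to 7-month-old mice of a 129/B6 mixed strain, 3 of each genotype, and 6 groups of 3 libraries were made. By the paper, both mutant lines were backcrossed to B6 and kept as separate colonies. It gives a younger age for the cultures used in mass spectrometry, though it describes each replicate as split between sequencing and mass spectrometry.

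The genotypes were wild type (WT), a knockout (KO) and a non-seed swap called 3′F. The KO allele lacks the mir-146a precursor, and the 3′F allele keeps the 5′ part of the mature strand while the 3′ part is exchanged with that of the opposite strand. Both alleles are in the germline, so every cell type of the animal carries them, and the WT controls were bred from both mutant lines. Resting BMDMs received fresh medium without LPS, and the other cultures received 1 ng/ml LPS, the bacterial lipopolysaccharide that activates TLR4. Both were harvested after 16 h.

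A microRNA guides an Argonaute protein to mRNAs, mostly by pairing of its seed, nucleotides 2 to 8, with sites in 3′ UTRs, and the bound mRNA is translated less or degraded. miR-146a is made after NF-κB is activated, and its best-known targets, IRAK1 and TRAF6, carry the signal from the IL-1 receptor and the TLRs to NF-κB, so it is described as a negative feedback on innate signalling. The comparison of KO and WT therefore asks what the target mRNAs do without miR-146a, and the comparison of 3′F with both asks whether they stay at the WT level when nucleotides 13 to 20 of the mature strand are changed and the seed is kept.

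The sequences below show what the 3′F allele changes and what it leaves. The seed is in capitals. The mature strands of mouse miR-146a (chr11:43374435-43374456, minus strand) and of its paralogue miR-146b (chr19:46342790-46342811, plus strand) are from RefSeq, build GRCm38.p6, and the 3′F strand is the 20-nt synthetic mimic that the study designed.
miR-146a-5p: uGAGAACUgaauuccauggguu
miR-146b-5p: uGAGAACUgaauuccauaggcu
3′F mimic: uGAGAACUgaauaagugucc
All 3 strands share the seed. The mimic differed from WT miR-146a at 8 of the 20 positions compared, the first at position 13 and the last at position 20, counted from the 5′ end. miR-146b, which is encoded elsewhere and the gene of which is intact in all genotypes, differed from miR-146a at 2 of 22 positions, 18 and 21. By the paper's small RNA sequencing of BMDMs, the level of miR-146b appeared higher in KO and not in 3′F.

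Each 3′ UTR (the longest annotated one of each gene, Gencode M21, GRCm38) was searched on the sense strand for the seed match. The match was counted as an 8mer (AGTTCTCA), a 7mer-m8 (AGTTCTC, with no A after it), a 7mer-A1 (GTTCTCA, with no A before it) or a 6mer (GTTCTC alone), so that no site was counted under more than 1 type. Traf6 held 4 8mers in a UTR of 4170 bases. Irak1 held 2 8mers and 1 7mer-A1 in 1526 bases. Irak2 held 1 8mer, 1 7mer-m8, 1 7mer-A1 and 1 6mer in 1246 bases. Numb, Notch1 and Smad4 held 1 8mer each, and Card10 held 1 8mer and 1 6mer. Cxcr4 held no match of any type in its 644 bases, and the transcript to which this UTR belongs held 1 6mer outside it. Of 20763 genes with an annotated 3′ UTR, 4.09% held at least 1 8mer, 18.2% at least 1 7mer or 8mer, and 0.973% 3 or more. Reported targets are often found by such matches, so the high share among the 8 genes is given as a description. How each of them was found was not examined. The background was not matched for UTR length, the median of which was 965 bases. The next lines print 30 bases that end at the seed match (in capitals) for the genes on which the expression results turn and for Irak1 and Traf6, with the 22 bases before the match, where the 3′ part of the microRNA could pair.
Irak1 (chrX:74015393-74015422, minus strand, 8mer at base 40 of the UTR): atccctcagactcagaggtcaaAGTTCTCA
Irak1 (chrX:74015377-74015406, minus strand, 8mer at base 56): ggtcaaagttctcatgcttggaAGTTCTCA
Traf6 (chr2:101697937-101697966, plus strand, 8mer at base 460): agaagttaccgctctggtgttgAGTTCTCA
Traf6 (chr2:101698001-101698030, plus strand, 8mer at base 524): accatgatccctggaaggcttaAGTTCTCA
Irak2 (chr6:113694244-113694273, plus strand, 8mer at base 486): acctacagccggtgtctccgcaAGTTCTCA
Irak2 (chr6:113694111-113694140, plus strand, 7mer-m8 at base 353): tgctgttgcccccaaacctcttAGTTCTCc
Notch1 (chr2:26459263-26459292, minus strand, 8mer at base 261): atctgttccaagaaaataaactAGTTCTCA
Numb (chr12:83794813-83794842, minus strand, 8mer at base 619): atgcacctagaatattttaaatAGTTCTCA
In these 22 bases the longest stretch that could pair without a break with nucleotides 13 to 20 was 5 for WT and 3 for 3′F at the Traf6 site at base 524, the largest difference among the sites of the 8 genes. At the Irak1 site at base 56 it was 4 for WT and 3 for 3′F, and at base 40 it was 3 for both. At the Traf6 site at base 460 it was 3 for WT and 2 for 3′F. At the Traf6 8mers not printed it was 4 for both at base 1336, and 3 for WT and 4 for 3′F at base 3860. At the 7mer-A1 sites, also not printed, it was 4 for both in Irak1 and 3 for both in Irak2. At the Irak2 7mer-m8 it was 4 for WT and 3 for 3′F, at the Irak2 8mer it was 2 for WT and 3 for 3′F, and at the Notch1 and Numb sites it was 3 for both. Over all 4847 7mer and 8mer sites of the annotation, 33.1% had a stretch of 4 or more for WT and 27.5% for 3′F. G:U pairs were not counted.

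**Figure D1:**
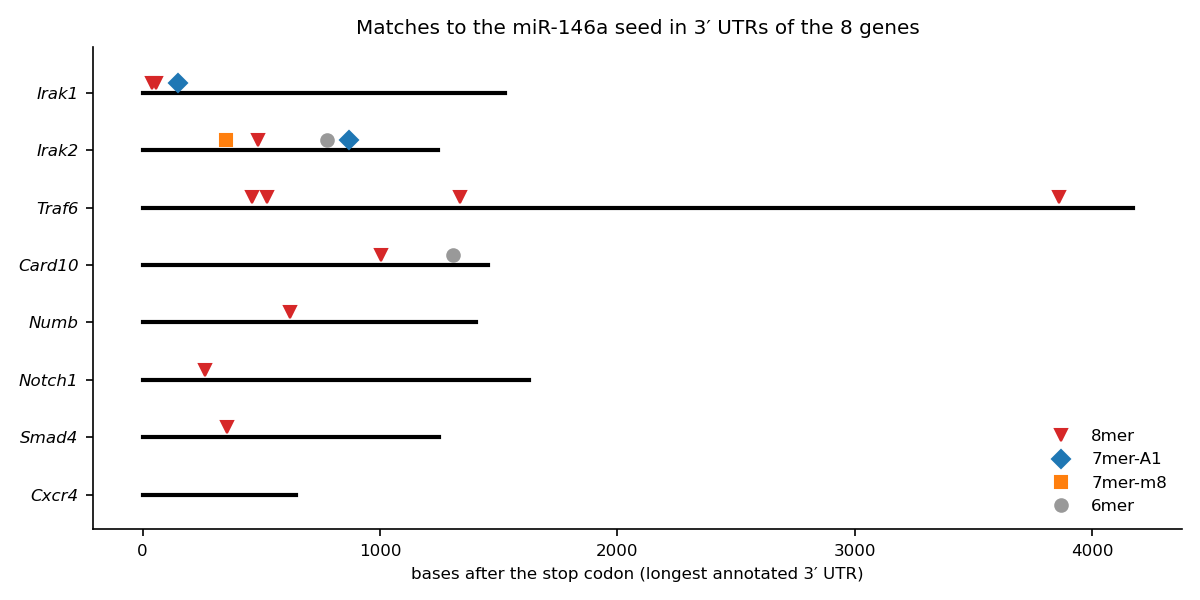
Matches to the miR-146a seed along the longest annotated 3′ UTR of each of the 8 genes, with distance in bases after the stop codon on the x axis and 1 line per gene. Traf6 has 4 8mers spread over 4170 bases, the 2 8mers of Irak1 lie close together at bases 40 and 56, and Cxcr4 has no match in 644 bases.

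Libraries held 4071084 to 19818043 counts, a 4.87-fold range, and levels are given as CPM, counts per 1000000 of library size after TMM scaling. Of the libraries of 1 group, resting KO replicate 3 lay at 19.7 on the first principal component and the other resting KO libraries at −28.2 and −31.4. The same library had a summed level of 10 interferon-response genes of 10592 CPM, against 345 and 502 in the other resting KO libraries, 68.5 to 172 in resting WT and 86.2 to 150 in resting 3′F. With LPS this sum was 2552 to 15383 CPM in WT, 4711 to 7065 in 3′F and 9730 to 13212 in KO. The value of resting KO replicate 3 thus lay within the range of KO with LPS. On the first component it lay beyond WT replicate 2 with LPS, at 17.4. Why this resting library resembles those with LPS was not tested. Resting 3′F replicate 3, the library with the fewest counts, stood apart on the second component, at 50.3. Counts of calls, the called values of the 8 genes and the partner genes named between genotypes are also given without both libraries, an alternative chosen after seeing the data. All 8 macrophage markers, among them Csf1r and Adgre1, were expressed in every library, and summed markers of T cells, B cells, dendritic cells, stroma and megakaryocytes were at or under 5.79 CPM. Markers of neutrophils and granulocyte precursors summed to 9.64 to 51.1 CPM. The macrophage list summed to 31772 to 47835 CPM in resting WT, 42652 to 62329 in resting 3′F and 60518 to 62440 in resting KO. With LPS it summed to 45543 to 59936 CPM in WT, 50475 to 60404 in 3′F and 71189 to 87899.8 in KO, above every WT library. Lyz2 alone stood at 26461 to 75160 CPM over the libraries, and no other marker of the list exceeded 4895 CPM (Adgre1). These sums therefore mainly follow Lyz2. The table holds protein-coding genes, so miR-146a itself was not analysed here and the genotypes were not checked by it. In bulk cultures, fewer cells that express a gene and less of its mRNA per cell cannot be told apart.

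Per kb of exon, over the 18 libraries, Cxcr4 had the highest mean level of the 8, 69.3 CPM per kb, above 91.8% of the genes tested. Irak2 followed with 27.6 CPM per kb, Smad4 with 18.9, Numb with 17.4, Irak1 with 16.6, Traf6 with 8.55 and Notch1 with 5.63. Card10 stood at 0.0103 CPM per kb. Thus 7 of the 8 mRNAs were measured at levels between the 39.0th and the 91.8th percentile of the genes tested.

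**Figure D2:**
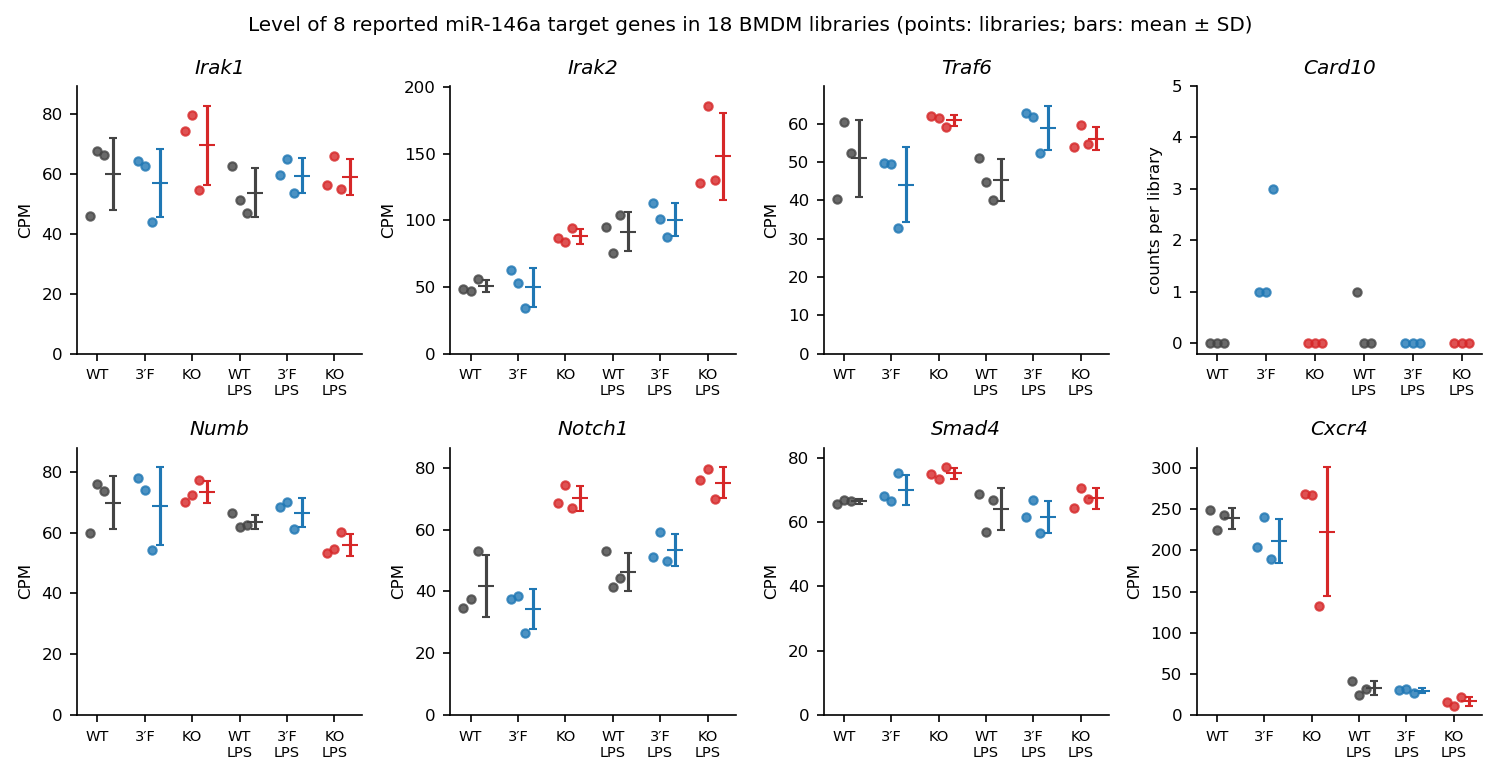
Level of each of the 8 genes in each of the 18 libraries, by group, in CPM after TMM scaling (Card10 in raw counts per library), with points for libraries in replicate order and, beside them, the mean ± SD of 3 libraries. Irak2 and Notch1 are higher in KO than in WT at rest and with LPS with no overlap of the libraries, Cxcr4 is far lower in every LPS group, and Card10 has 3 counts or fewer in every library.

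IRAK1 and IRAK2 are kinases of the IL-1 receptor and TLR complexes. They are recruited through MyD88 and pass the signal to the ubiquitin ligase TRAF6. Irak1 (ENSMUSG00000031392, chromosome X, 74013914 to 74023918, minus strand) was read at 187 to 1203 counts per library. In resting cells it stood at 46.0, 67.5 and 66.2 CPM in WT replicates 1 to 3, at 64.2, 62.5 and 43.8 in 3′F and at 74.4, 79.7 and 54.6 in KO. With LPS it stood at 62.8, 51.5 and 46.8 CPM in WT, at 59.6, 65.1 and 53.6 in 3′F and at 56.4, 65.9 and 54.9 in KO. The libraries of every neighbouring pair of groups in the order of the means, from 69.5 CPM in resting KO to 53.7 CPM in WT with LPS, overlapped. The log2 difference between KO and WT was 0.22 ± 0.18 (SE) at rest and 0.14 ± 0.18 with LPS, with 95% intervals of −0.17 to 0.60 and −0.25 to 0.52 and adjusted p of 0.527 and 0.766 (edgeR quasi-likelihood test, Benjamini-Hochberg over all genes). Irak1 was called, at an adjusted p under 0.05, in none of the 11 comparisons by edgeR, at an unadjusted p no lower than 0.143. Without resting KO replicate 3 and resting 3′F replicate 3 it was called lower with LPS in KO, by −0.46 ± 0.15 (adjusted p 0.0235), against −0.24 ± 0.18 (0.364) with them. This response was −0.38 (0.118) without resting KO replicate 3 alone and −0.30 (0.178) without resting 3′F replicate 3 alone. It was called in 0 of the 18 fits with 1 library left out.

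Irak2 (ENSMUSG00000060477, chromosome 6, 113638467 to 113695026, plus strand) was higher with LPS in each genotype and higher in KO than in WT in both states. In resting cells it stood at 48.7, 47.2 and 56.1 CPM in WT, at 62.7, 53.1 and 33.9 in 3′F and at 86.5, 83.3 and 94.3 in KO. After LPS it was at 94.8, 75.5 and 104 CPM in WT, at 113, 101 and 87.6 in 3′F and at 128, 186 and 130 in KO. Resting KO libraries lay above every resting WT and 3′F library, and KO libraries with LPS lay above all others. The mean in resting KO, 88.0 ± 5.65 CPM (SD, n = 3), was close to that of WT with LPS, 91.4 ± 14.5 CPM, and the libraries of these groups overlapped. These values rested on 145 to 2568 counts per library.

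The log2 LPS response of Irak2 was 0.85 ± 0.19 in WT (adjusted p 0.00376), 0.75 ± 0.19 in KO (0.00815) and 0.99 ± 0.20 in 3′F (0.0012). Resting KO exceeded resting WT by 0.80 ± 0.19 on the log2 scale, or 1.74-fold (adjusted p 0.0171), and resting 3′F by 0.80 ± 0.19 (0.0164). Between resting 3′F and WT the difference was 0.00 ± 0.19, with a 95% interval of −0.42 to 0.41. With LPS, KO exceeded WT by 0.70 ± 0.19, or 1.62-fold (0.0487), and 3′F by 0.56 ± 0.19 (0.126). The LPS response of KO was smaller than that of WT by 0.10 on this scale, with an interval of −0.68 to 0.47 and an adjusted p of 1.00, so an interaction was not detectable at this precision.

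The call of Irak2 in resting KO against WT was lost without resting WT replicate 1 (0.77, adjusted p 0.0646) or replicate 2 (0.75, 0.0785), and its response to LPS in KO was not called without KO replicate 2 with LPS (0.50, 0.0991). The KO to WT difference with LPS lay near the threshold, and stayed called when resting KO replicate 3, resting 3′F replicate 1 or resting 3′F replicate 3 was left out but not when any of the other 15 libraries was, with adjusted p from 0.0132 to 0.292. Without both libraries that stand apart it was 0.68 ± 0.15 (0.00687), and with LPS KO then exceeded 3′F by 0.54 ± 0.15 (0.0252). At rest, without them, KO exceeded WT by 0.77 ± 0.16 (0.00662) and 3′F by 0.58 ± 0.18 (0.0700), and the LPS response was 0.82 ± 0.15 in WT (0.000432), 0.72 ± 0.17 in KO (0.00237) and 0.76 ± 0.17 in 3′F (0.00237).

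TRAF6 is the ubiquitin ligase at which IL-1 receptor and TLR signals meet. Traf6 (ENSMUSG00000027164, chromosome 2, 101678429 to 101701669, plus strand), the gene with the most seed matches of the 8, stood at 40.3, 60.4 and 52.3 CPM in resting WT, at 49.9, 49.6 and 32.8 in resting 3′F and at 62.1, 61.5 and 59.3 in resting KO. With LPS it stood at 51.1, 44.9 and 40.2 CPM in WT, at 62.7, 61.8 and 52.3 in 3′F and at 54.0, 59.6 and 54.8 in KO. With LPS the KO and 3′F libraries all lay above the WT libraries, and at rest the KO libraries lay above the 3′F libraries. None of these differences was called.

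Traf6 with LPS was higher than in WT by 0.31 ± 0.16 in KO (adjusted p 0.332) and by 0.38 ± 0.16 in 3′F (unadjusted p 0.0289, adjusted p 1.00). At rest the difference from WT was 0.26 ± 0.16 in KO (0.357) and −0.19 ± 0.16 in 3′F (0.845), and KO exceeded 3′F by 0.45 ± 0.16 (0.0699). The last of these was called by DESeq2 (0.45 ± 0.17, adjusted p 0.0483) and without resting WT replicate 1 (0.45, 0.0479), and fell to 0.30 (0.22) without resting 3′F replicate 3, in which Traf6 was lowest. The LPS response of Traf6 was −0.17 ± 0.16 in WT, −0.12 ± 0.16 in KO and 0.41 ± 0.16 in 3′F (adjusted p 0.474, 0.622 and 0.0631). The 3′F response was called without resting WT replicate 1 (0.41, 0.0407) or resting 3′F replicate 1 (0.50, 0.0459), and was 0.21 (0.304) without resting 3′F replicate 3.

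CARD10, also called CARMA3, is a scaffold that links G-protein-coupled and growth factor receptors to BCL10, MALT1 and NF-κB. Card10 (ENSMUSG00000033170, chromosome 15, 78775138 to 78803042, minus strand) had 1, 1 and 3 counts in the resting 3′F libraries, 1 count in WT replicate 1 with LPS and 0 in all others. A count of 0 allows up to 3 counts per library and covers counting error only. The mRNA was therefore at or below the floor of these libraries in each genotype and state, and no fold is given.

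NUMB is an endocytic adaptor that inhibits Notch signalling, and NOTCH1 is a receptor whose intracellular part enters the nucleus after cleavage by ADAM proteases and γ-secretase. Numb (ENSMUSG00000021224, chromosome 12, 83794034 to 83921934, minus strand) stood at 59.9, 76.0 and 73.8 CPM in resting WT, at 78.1, 74.0 and 54.3 in resting 3′F and at 70.2, 72.3 and 77.4 in resting KO. After LPS it was at 66.3, 61.8 and 62.4 CPM in WT, at 68.4, 70.2 and 61.1 in 3′F and at 53.2, 54.5 and 60.2 in KO. All KO libraries with LPS lay below all other libraries of WT and KO except resting WT replicate 1, the value of which (59.9) lay within their range. Numb fell with LPS in KO by 0.39 ± 0.13 on the log2 scale (adjusted p 0.0301), and its response was −0.14 ± 0.12 in WT (0.451) and −0.05 ± 0.13 in 3′F (0.768). The call in KO was lost without resting KO replicate 1 (−0.42, 0.0547), replicate 2 (−0.40, 0.0694) or replicate 3 (−0.35, 0.0617), or without KO replicate 1 (−0.35, 0.105) or replicate 2 with LPS (−0.42, 0.0686). Without both libraries that stand apart it was called, at −0.42 ± 0.10 (0.00344). The difference of the KO response from that of WT was −0.25 ± 0.18, with a 95% interval of −0.62 to 0.12, and Numb did not pass the test between genotypes in either state (adjusted p 0.335 to 1.00).

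Notch1 (ENSMUSG00000026923, chromosome 2, 26457903 to 26516663, minus strand) was higher in KO in both states. It stood at 34.7, 37.4 and 53.2 CPM in resting WT, at 37.7, 38.6 and 26.7 in resting 3′F and at 68.7, 74.6 and 67.1 in resting KO. With LPS it stood at 53.0, 41.5 and 44.3 CPM in WT, at 51.0, 59.4 and 49.9 in 3′F and at 76.0, 79.8 and 70.0 in KO. All 6 KO libraries lay above all libraries of WT and 3′F, while the resting and LPS libraries of KO overlapped each other.

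Resting KO exceeded resting WT by 0.75 ± 0.16, or 1.68-fold (adjusted p 0.00876), and resting 3′F by 1.01 ± 0.16, or 2.02-fold (0.00218). With LPS, KO exceeded WT by 0.70 ± 0.16, or 1.63-fold (0.0199), and 3′F by 0.49 ± 0.16 (0.1003). The difference between 3′F and WT was −0.26 ± 0.16 at rest and 0.21 ± 0.16 with LPS, with 95% intervals of −0.61 to 0.08 and −0.13 to 0.55. Notch1 rose with LPS in 3′F, by 0.62 ± 0.16 (0.00833), and its responses in WT, 0.15 ± 0.16, and in KO, 0.10 ± 0.16, were not called (0.527 and 0.684). The 3′F response exceeded that of WT by 0.47 ± 0.23, with an interval of −0.01 to 0.95 and an adjusted p of 0.975. Without resting 3′F replicate 3 the 3′F response was 0.45 (0.0480), and without both libraries that stand apart 0.45 ± 0.16 (0.0356).

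The resting KO to WT call of Notch1 was lost without resting WT replicate 2 (0.68, adjusted p 0.0550) and when those groups alone were fitted (0.73 ± 0.18, 0.0758). The call with LPS was lost without WT replicate 2 (0.63, 0.118) or replicate 3 (0.67, 0.0598) with LPS, or without KO replicate 1 (0.69, 0.0664) or replicate 2 (0.65, 0.117) with LPS. Without both libraries that stand apart, KO exceeded WT by 0.81 ± 0.15 at rest (0.00343) and by 0.68 ± 0.14 with LPS (0.00453), and 3′F by 0.93 ± 0.17 at rest (0.00515) and by 0.48 ± 0.14 with LPS (0.0338).

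SMAD4 is the common partner of the receptor-activated SMADs in TGF-β and BMP signalling. Smad4 (ENSMUSG00000024515, chromosome 18, 73639009 to 73703780, minus strand) kept within 56.7 to 77.02 CPM over the 18 libraries. It stood at 65.6, 66.9 and 66.6 CPM in resting WT, at 68.1, 66.5 and 75.4 in resting 3′F and at 75.0, 73.5 and 77.02 in resting KO. After LPS it was at 68.7, 56.8 and 66.7 CPM in WT, at 61.5, 66.7 and 56.7 in 3′F and at 64.4, 70.7 and 67.0 in KO. The resting KO libraries lay above the resting WT libraries, by 0.18 ± 0.09 on the log2 scale (95% interval −0.02 to 0.38, adjusted p 0.259). With LPS the difference was 0.07 ± 0.09 (−0.12 to 0.27, 0.755). Smad4 was called in none of the 11 comparisons by edgeR, at an unadjusted p no lower than 0.0708, or by DESeq2, and its response in KO (−0.16 ± 0.09, adjusted p 0.227) was called only in the fit without resting 3′F replicate 3 (−0.22, 0.0462).

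CXCR4 is the receptor for the chemokine CXCL12 and retains haematopoietic cells and myeloid cells in the marrow. Cxcr4 (ENSMUSG00000045382, chromosome 1, 128588199 to 128592293, minus strand), the 1 gene of the 8 with no seed match in its 3′ UTR, changed most with LPS. In resting cells it stood at 250, 225 and 243 CPM in WT, at 204, 240 and 189 in 3′F and at 268, 267 and 132 in KO. With LPS it stood at 41.4, 24.6 and 31.1 CPM in WT, at 30.4, 31.9 and 26.6 in 3′F and at 16.2, 11.3 and 22.04 in KO. Every resting library lay above every library with LPS, and with LPS the KO libraries lay below the WT and 3′F libraries. Of the resting libraries, KO replicate 3, with its high interferon-response sum, had the lowest value. These values rested on 156 to 4342 counts per library.

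Cxcr4 fell with LPS by 2.89 ± 0.27 on the log2 scale in WT, or 7.39-fold (adjusted p 1.43e-06). Its log2 response was −2.83 ± 0.27 in 3′F, or 7.13-fold lower (1.64e-06), and −3.75 ± 0.28 in KO, or 13.5-fold lower (1.36e-07). Without resting KO replicate 3 the KO response was −4.02 (6.22e-09). With LPS, KO lay below WT by 0.97 ± 0.26, or 1.96-fold (0.0455), while 3′F differed from WT by −0.12 ± 0.26, with a 95% interval of −0.67 to 0.42. The difference of −0.84 ± 0.26 between KO and 3′F with LPS had an adjusted p of 0.0908 and was called by DESeq2 (−0.85 ± 0.27, 0.0328) and without resting KO replicate 3 (−0.85, 0.0218). At rest, KO and WT differed by −0.10 ± 0.25 (adjusted p 0.863), and by 0.19 ± 0.20 (0.571) without both libraries that stand apart. The KO response differed from that of WT by −0.87 ± 0.36 (unadjusted p 0.0294, adjusted p 0.915).

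The KO to WT difference of Cxcr4 with LPS lay near the threshold. It was called when any 1 of the resting KO libraries, resting 3′F replicate 3 or KO replicate 3 with LPS was left out and not when any of the other 13 libraries was, with log2 differences from −1.23 to −0.75 and adjusted p from 0.00872 to 0.238. It was also not called when the compared groups alone were fitted (−0.99 ± 0.27, 0.0579). Without both libraries that stand apart it was −0.98 ± 0.20 (0.00475), and KO then lay below 3′F with LPS by −0.86 ± 0.20 (0.0122). The LPS responses without them were −2.92 ± 0.20 in WT (2.08e-08), −2.94 ± 0.21 in 3′F (4.82e-08) and −4.09 ± 0.22 in KO (2.12e-09).

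**Figure D3:**
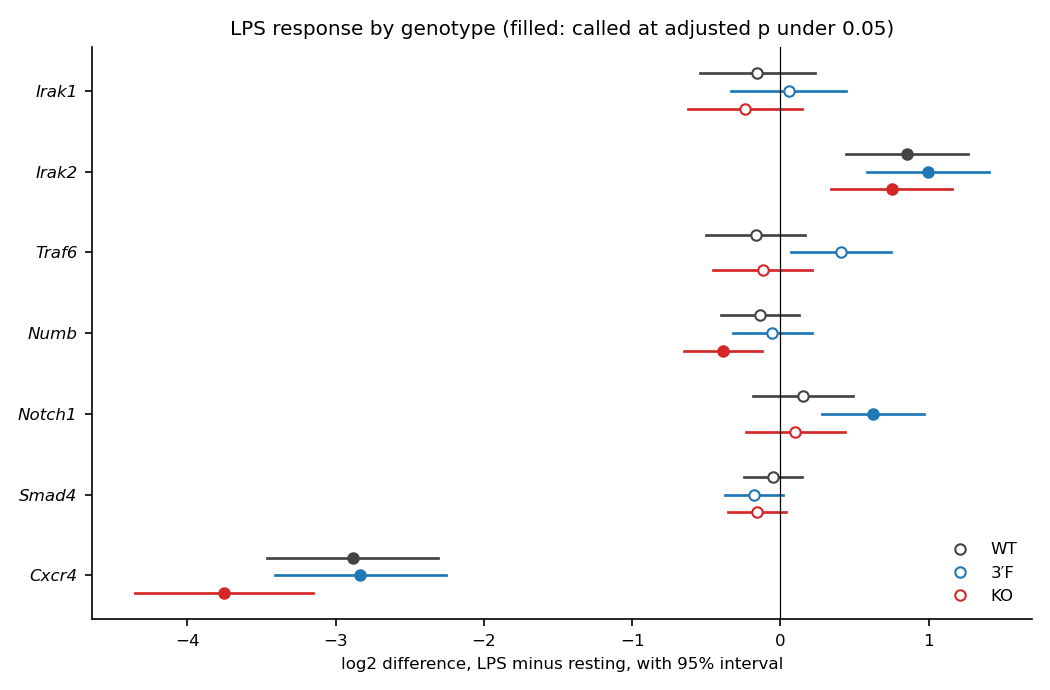
Log2 difference between LPS and resting libraries for the 7 genes that passed the filter, in WT, 3′F and KO, with 95% intervals from the fit and filled points where the adjusted p was under 0.05. Irak2 lies above 0 and Cxcr4 between −2.83 and −3.75 in each genotype, and Numb is called in KO and Notch1 in 3′F.

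The calls of the 7 genes were read against those of all 11357 genes tested. In the LPS response of WT 2 of 7 were called (Irak2 higher, Cxcr4 lower), against 28.5% of all genes. In KO it was 3 of 7 (Irak2 higher, Numb and Cxcr4 lower), against 26.9%, and in 3′F 3 of 7 (Irak2 and Notch1 higher, Cxcr4 lower), against 31.2%. These shares are near the background. Their median log2 response was −0.14 in WT, −0.16 in KO and 0.06 in 3′F, and the median over all genes was 0.02, 0.02 and −0.01.

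Resting KO against WT called 2 of 7 (Irak2 and Notch1, both higher), against 9.4% of all genes, with a median of 0.22 against 0.02 over all genes. With LPS it called 3 of 7 (Irak2 and Notch1 higher, Cxcr4 lower), against 4.79%, with a median of 0.14 against 0.01. The members were chosen with earlier results of these data known. A share above the background is therefore no independent result about miR-146a targets. Both libraries that stand apart being left out, the counts were 2 and 3, against 14.6% and 14.2% of the 11411 genes then tested. Of the 6 tested genes with a seed match in the 3′ UTR, 2 were called higher in KO in each state, and the gene without a match was called lower with LPS. Of all 11357 genes tested, 582 were called higher at rest, and 215 higher and 329 lower with LPS. Calls among all genes with a seed match were not counted. KO libraries also had higher sums of macrophage markers than WT libraries in both states, sums that mainly follow Lyz2. At rest they also had higher sums of interferon-response genes. These sums differ between the groups as the genotype does, and their part in the KO differences was not tested.

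3′F against WT called 0 of the 7 genes in either state by edgeR and 0 by DESeq2, against 0% of all genes at rest and 0.00881% with LPS. At an unadjusted p under 0.05 it was 0 of 7 at rest and 1 of 7 (Traf6) with LPS, beside 557 and 106 of all genes. KO against 3′F called 2 of 7 at rest (Irak2 and Notch1, higher in KO), against 12.9% of all genes, and 0 of 7 with LPS, against 3.88%, where 3 of 7 (Irak2, Notch1 and Cxcr4) had an unadjusted p under 0.05 and DESeq2 called 1 (Cxcr4). Fitted on those groups alone, the calls of KO against 3′F were 0 at rest, with Irak2 at 0.80 ± 0.22 (adjusted p 0.174) and Notch1 at 1.02 ± 0.17 (0.0886), and 4 with LPS (Irak2 and Notch1 higher, Numb and Cxcr4 lower). The KO and 3′F comparisons use the same WT libraries, and the differences of KO from WT and from 3′F share the KO libraries, so that their values stand side by side and are not independent. The LPS response differed from that of WT in 0 of 7 genes both for KO, against 0.00881% of all genes, and for 3′F, against 0%, with 1 of 7 at an unadjusted p under 0.05 in each (Cxcr4 for KO, Traf6 for 3′F) and 0 by DESeq2.

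**Figure D4:**
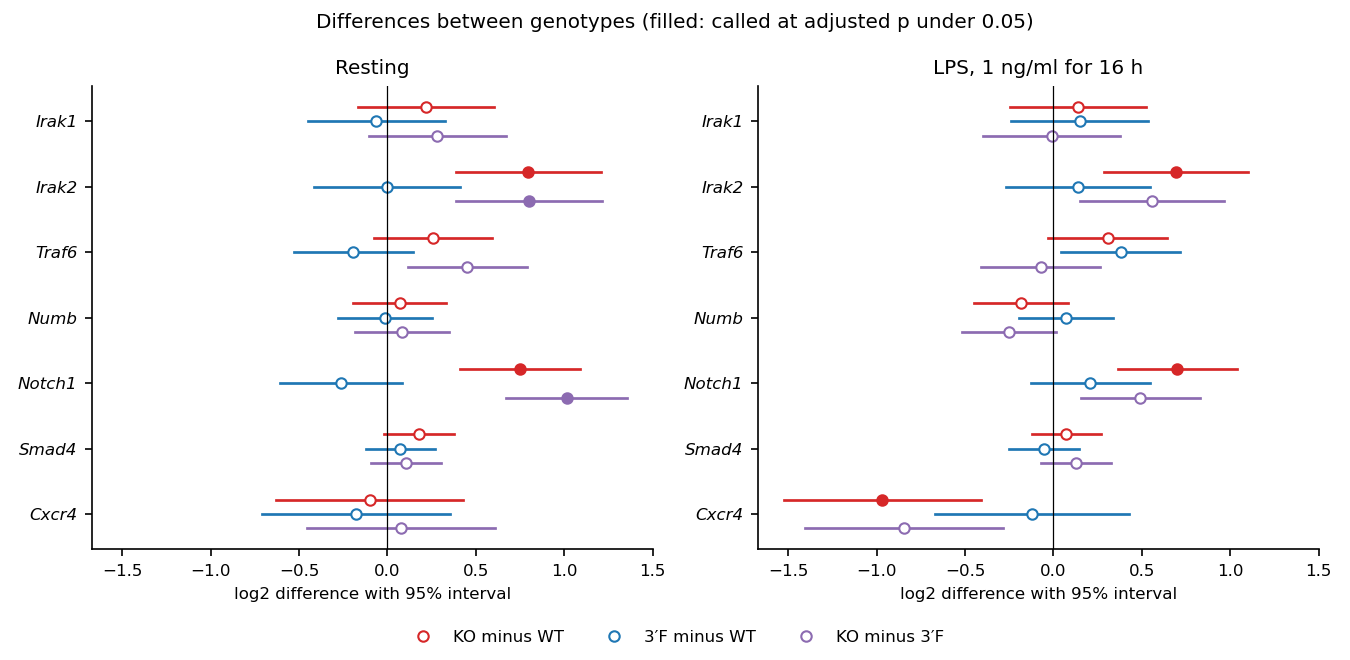
Log2 differences between genotypes for the 7 genes that passed the filter, resting (left) and with LPS (right), with 95% intervals and filled points where the adjusted p was under 0.05. KO minus WT is called for Irak2 and Notch1 in both states and for Cxcr4 with LPS, and each of the 3′F minus WT values has an open point, with Traf6 with LPS at 0.38 the only one whose unadjusted interval lies beyond 0.

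The genes around these targets, 59 in the table and 52 tested, were taken as lists of pathway partners by membership of the pathway. These lists too were chosen with earlier results of these data known, so their shares are a description. In the LPS response of WT 20 of 52 were called higher and 5 lower, 48.1% in all, against 28.5% of all genes tested. The largest rises were those of Irak3 (2.69 ± 0.20, adjusted p 1.31e-07), a kinase-dead member of the IRAK family that restrains signalling, Malt1 (2.05 ± 0.18, 6.09e-07), the paracaspase that works with CARD proteins and BCL10, and Myd88 (1.61 ± 0.23, 9.12e-05), the adaptor that recruits the IRAKs. The largest falls were those of the Notch ligand gene Jag2 (−2.01 ± 0.36, 0.000572), the inhibitory SMAD gene Smad7 (−1.16 ± 0.15, 3.49e-05) and the TGF-β receptor gene Tgfbr1 (−0.79 ± 0.20, 0.00796). The LPS response of KO called 14 higher and 5 lower, 36.5% in all against 26.9% of all genes, and that of 3′F 21 and 4, 48.1% against 31.2%. Without both libraries that stand apart 23 were called higher and 7 lower in WT (41.9% of all genes were then called), 17 and 9 in KO (44.2%) and 20 and 7 in 3′F (35.1%).

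By list, and against the same 28.5% of all genes, the LPS response of WT called 7 of 18 genes from the IL-1 receptor and TLRs to TRAF6 higher and 0 lower, 6 higher and 2 lower of 14 of the NUMB and Notch list, and 4 higher and 3 lower of 14 of the TGF-β and SMAD list. Of the CXCL12 axis 1 of 2 tested genes was called higher, and of CARD, BCL10 and MALT1 2 of 4.

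Resting KO against WT called 3 of 52 higher, Myd88 (0.90 ± 0.23, adjusted p 0.0208), Irak3 (0.71 ± 0.19, 0.0282) and Skil (0.65 ± 0.13, 0.00561), a co-repressor of SMAD proteins, and 1 lower, Jag2 (−1.27 ± 0.34, 0.0279). With LPS it called 4 higher, led by Irak3 (0.67 ± 0.19, 0.0495), Smad1 (0.49 ± 0.13, 0.0459) and Smad2 (0.42 ± 0.09, 0.011), and 1 lower, Jag2 (−2.04 ± 0.51, 0.0327). Smad1 and Smad2 encode SMADs that receptors activate. The fourth was Grk2 (0.33 ± 0.08, 0.0328), a kinase that desensitises chemokine receptors. These shares of 4 and 5 of 52 stand beside the 9.4% and 4.79% of all genes given above. 3′F against WT called 0 of 52 in both states. KO against 3′F called 10 higher and 1 lower at rest, against 12.9% of all genes, and 2 higher and 0 lower with LPS, against 3.88%, and the LPS response of KO or 3′F differed from that of WT in 0 of 52. The median log2 difference over the 52 was 0.21 for resting KO against WT and 0.14 with LPS, and −0.07 and 0.03 for 3′F.

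The partner counts between genotypes depended on the libraries that stand apart. Without both, resting KO against WT called 12 of 52 higher and 1 lower, against 14.6% of all genes, and with LPS 12 higher and 2 lower, against 14.2%. KO against 3′F then called 6 higher and 0 lower at rest, against 6.56%, and 10 higher and 1 lower with LPS, against 12.2%. The LPS response of KO differed from that of WT in 1 of 52, Tgfbr1 (−0.63 ± 0.12, adjusted p 0.0369), against 0.289% of all genes. Of the partners named above for resting KO against WT, all 4 stayed called, with Myd88 at 0.64 ± 0.18 (adjusted p 0.0239), Irak3 at 0.65 ± 0.13 (0.00357), Skil at 0.70 ± 0.13 (0.00337) and Jag2 at −1.06 ± 0.32 (0.0396). With LPS the 5 named above stayed called too, at adjusted p of 0.00110 for Irak3, 0.0112 for Smad1, 0.00101 for Smad2, 0.00573 for Grk2 and 0.0116 for Jag2.

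The genes most like each target over the 18 libraries were picked by the highest Pearson's r of log2 CPM among the genes tested. How high such values run for other genes was not examined. The genes most like Irak2 were Plcb3 (r = 0.98) and Nr3c1 (0.97), and those most like Cxcr4 were Rcbtb2 (0.99) and Arl4c (0.98). Notch1 was most like Rnf216 and Mapk8ip3 (0.93 each), Traf6 most like Nfyc (0.93) and Cdk12 (0.92), and Numb most like Dusp7 (0.93). Irak1 was most like Gigyf1 (0.92) and Gab2 (0.89), and Smad4 most like Fbxw7 (0.89) and 4930523C07Rik (0.88). All genes were correlated over the same libraries, which differ in group, LPS state and depth, so these values are a description.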

How the data were processed

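RNA was sequenced from 18 BMDM cultures by directional libraries of rRNA-depleted total RNA. The authors trimmed reads with cutadapt 1.8.3, removed rDNA reads, aligned the others to mm10 with HISAT2 2.1.0 and counted them per gene of Gencode M15, by strand, with featureCounts 1.5.3. The deposited values are raw counts per protein-coding gene and an exon length in bases. Total counts per library (4071084 to 19818043) set the precision, and intervals for low counts cover counting error only. Other annotated genes or small RNAs lie on the same strand within Irak1, Irak2, Numb and Notch1, and reads shared with them could be uncertain.

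Here, in R 4.3.3, genes were filtered by filterByExpr of edgeR 4.0.16 (11357 kept) and scaled by TMM, and all 18 libraries entered 1 quasi-likelihood fit with a coefficient per group, from which 11 comparisons were taken. The F tests are two-sided. Calls were made at 0.05 on Benjamini-Hochberg adjusted p, with the 11357 genes of each comparison as the family. The SE of a log2 difference is its size over the square root of F. An exact permutation of 3 against 3 libraries cannot go below 0.1, so tests rest on the model. Replicates of a group differed by more than sampling noise (chi-square per degree of freedom 6.95 to 109 over 18 pairs). Replicates of a group are cultures of separate mice as far as the labels say. The spread behind the p values between genotypes is estimated from all 18 libraries of the 6 groups. With 3 mice per genotype, the resting and LPS cultures of a genotype would come from the same mice. The main fit did not pair them, so its p values for LPS responses do not measure the spread of the response between mice. In its p values between genotypes, cultures of the same mouse would count as separate. For genotypes, the fits on the compared groups alone leave the other state out.

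The 8 genes are named whatever they show, with up to 3 higher and 3 lower called partners for the WT LPS response and for KO against WT, and the 2 genes most correlated with each target (log2 CPM, prior count 2). 1 gene that meets this rule is left out of the text. Grk2, and Tgfbr1 in the KO response, were named after their values were seen, to complete a count. The members and lists were chosen with earlier results of these data known. The partner lists run from the IL-1 receptor and TLRs to TRAF6 (19 genes), over NUMB and Notch (17), TGF-β and SMAD (14), the CXCL12 axis (5, of which 4 were in the table) and CARD, BCL10 and MALT1 (5). Alternatives were RLE scaling, no filter, DESeq2 1.42.0, a replicate block, the compared groups alone, each library left out and, chosen after seeing the data, resting KO replicate 3 and resting 3′F replicate 3 both left out. The mimic's sequence is from the study's list of oligonucleotides, and no sequence of Smad4 is reported here.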

Additional observations from a re-analysis of the deposited data

Results flagged for a closer look

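Traf6 was the 1 target whose responses to LPS, taken per replicate number as log2 of the CPM with LPS over the CPM at rest, lay on opposite sides of 0 in KO and 3′F. They were 0.33, 0.32 and 0.68 in 3′F replicates 1 to 3 and −0.20, −0.04 and −0.11 in KO, so that the mean response of 3′F exceeded that of KO by 0.56. In WT they were 0.34, −0.43 and −0.38. The difference between 3′F and KO was not tested, and the replicate numbers are not stated to mark the same mouse. Of the 3′F values, the highest is that of replicate 3, the resting library of which had the fewest counts of all.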

How the results depend on the processing

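RLE scaling and fitting without the low-count filter left the number of targets called in each of the 11 comparisons within 1.5 times its value, although Irak2 in KO against WT with LPS then missed the threshold (adjusted p 0.0532 and 0.0507). The largest dependence was on the libraries in the fit, and a call from 3 against 3 libraries near 0.05 is limited by that number. Fitted on the compared groups alone, the count was 1 for resting KO against WT, 0 for resting KO against 3′F and 4 for KO against 3′F with LPS, and DESeq2 gave 1 for the last. With both libraries that stand apart left out, an alternative chosen after seeing the data, it was 1 for resting KO against 3′F and 3 for KO against 3′F with LPS. With 1 library left out at a time the count ranged from 1 to 4 for the KO LPS response, 0 to 2 for resting KO against WT, 0 to 3 for KO against WT with LPS and 0 to 1 for KO against 3′F with LPS. The causes were not tested.

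A replicate block, with the replicate number added to the fit, gave 1 target for KO against WT with LPS (Notch1) instead of 3, with Irak2 at 0.69 ± 0.20 (adjusted p 0.0635) and Cxcr4 at −0.95 ± 0.27 (0.0574), and added Traf6 to the 3′F LPS response (0.42 ± 0.15, 0.0476). The labels do not say that a number marks 1 mouse. In the same genotype, resting and LPS libraries of 1 number deviated together with r over 0.1 in 5 of 9 pairs (0.03 to 0.32), 7 of 9 LPS libraries correlating best with their own number, and across genotypes in 4 of 18 pairs (−0.29 to 0.21). A replicate block nested in genotype changed no call in the LPS responses and their differences between genotypes.

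Values that changed sign were not called in the main analysis. Without both libraries that stand apart, the LPS response was −0.0054 for Notch1 in KO and −0.13 for Irak1 in 3′F, resting KO against WT was 0.19 for Cxcr4, resting 3′F against WT was 0.083 for Irak1, 0.19 for Irak2 and 0.12 for Numb, and resting KO against 3′F was −0.070 for Numb. The LPS response then differed from WT by −0.014 for Traf6 in KO, and by −0.060 for Irak2, −0.058 for Numb and −0.021 for Cxcr4 in 3′F. With 1 library left out, resting KO against WT ranged from −0.033 to 0.13 for Numb and −0.26 to 0.16 for Cxcr4, resting 3′F against WT from −0.23 to 0.082 for Irak1, −0.12 to 0.12 for Numb and −0.20 to 0.19 for Irak2, and resting KO against 3′F from −0.078 to 0.34 for Cxcr4 and −0.047 to 0.18 for Numb. With LPS, 3′F against WT ranged from −0.29 to 0.092 for Cxcr4 and −0.14 to 0.00022 for Smad4, KO against WT from −0.0086 to 0.13 for Smad4, and KO against 3′F from −0.096 to 0.060 for Irak1. The LPS response ranged from −0.10 to 0.031 for Smad4 in WT, and from −0.23 to 0.047 for Numb and −0.13 to 0.15 for Irak1 in 3′F. Its difference between KO and WT ranged from −0.23 to 0.079 for Irak1, −0.26 to 0.067 for Notch1 and −0.095 to 0.19 for Traf6, and between 3′F and WT from −0.060 to 0.34 for Irak2, −0.059 to 0.18 for Numb and −0.11 to 0.27 for Cxcr4.

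Scaled to the raw library total, without TMM factors, 13 of 48 mean levels moved by more than 1 SD. In resting WT they became 57.4 CPM for Irak2, 79.3 for Numb, 75.2 for Smad4 and 271 for Cxcr4, in resting KO 64.0 for Traf6 and 78.8 for Smad4, in resting 3′F 75.8 for Smad4 and in WT with LPS 60.3 for Numb. In KO with LPS they became 50.8 for Irak1, 48.3 for Traf6, 48.3 for Numb, 64.8 for Notch1 and 58.1 for Smad4.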
